A study of Mus musculus with 3 samples.

Results

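Keratins 4, 7, 8, 18, 19 and 20 (Krt4, Krt7, Krt8, Krt18, Krt19 and Krt20) were described on arrays of 3 epithelial lineages of the mouse stomach. All probe sets that name 1 of these 6 genes, and no other gene, were taken from the platform's gene table, which gave 9 of 34958 such probe sets and 6 of 18194 genes. Krt8 has 3 probe sets, Krt4 has 2, and Krt7, Krt18, Krt19 and Krt20 have 1 each.

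The lineages were parietal cells, the acid-secreting cells, zymogenic cells, which secrete pepsinogen, and pit cells, mucous cells lining the top of the glands. Each lineage has 1 Affymetrix Mouse Genome 430 2.0 array. Cells were cut out by laser microdissection with a spot of 7.5 µm, 3000 to 5000 per lineage from 4 to 5 mice, and the RNA of a lineage was pooled to 20 ng, so that there are no replicates and nothing could be tested between lineages. Parietal cells, recognised by the lectin DBA and autofluorescence, were taken singly within the pit zone. Pit cells, E-cadherin-positive and DBA-negative, came from the same units, in a layer 2 to 3 cells thick, while zymogenic cells, E-cadherin-positive and negative for GSII and DBA, were dissected on separate slides near the gland base, and the effect of slide on that array cannot be told apart from that of lineage. No genotype, treatment, strain, sex or age is given in the sources used here. In such pooled material, fewer cells of a type and less RNA per cell cannot be told apart.

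Keratins are the intermediate filament proteins of epithelial cells. A filament is built from pairs of a type II keratin (Krt4, Krt7 and Krt8 here) and a type I keratin (Krt18, Krt19 and Krt20), and it is anchored to desmosomes through plakin proteins. Krt8 and Krt18 are the primary pair of single-layered epithelia, Krt19 is a further type I partner of ductal and glandular epithelia, Krt7 is found in ducts and other simple epithelia, and Krt20 marks differentiated cells of the gut lining. Krt4 belongs to stratified epithelia of the upper digestive tract, such as oesophagus and forestomach, rather than to glandular stomach.

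The promoter table, taken from RefSeq for the assembly GRCm38.p6, held 4 of the 6 genes. The 250 bases before each annotated start are shown because Krt7 and Krt20 had the same array pattern, described below, and Krt8 and Krt18 had others. Krt7 lies at chr15:101412153-101412402 (plus strand), Krt20 at chr11:99438154-99438403 (minus strand), Krt8 at chr15:102004343-102004592 (minus strand) and Krt18 at chr15:102027966-102028215 (plus strand). Capitals mark AGGAAG, the core bound by ETS factors, and TATAAA, the TATA box, on either strand.
Krt7: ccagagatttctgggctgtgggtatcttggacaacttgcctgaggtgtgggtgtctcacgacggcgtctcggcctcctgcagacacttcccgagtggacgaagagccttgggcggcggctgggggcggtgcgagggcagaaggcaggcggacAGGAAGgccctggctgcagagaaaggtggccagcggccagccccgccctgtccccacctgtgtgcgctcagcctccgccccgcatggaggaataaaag
Krt20: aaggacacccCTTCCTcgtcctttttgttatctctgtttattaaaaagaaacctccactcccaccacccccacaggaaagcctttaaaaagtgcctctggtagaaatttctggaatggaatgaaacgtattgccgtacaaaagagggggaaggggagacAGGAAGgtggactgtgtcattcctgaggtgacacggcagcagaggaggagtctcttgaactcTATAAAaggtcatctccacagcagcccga
Krt8: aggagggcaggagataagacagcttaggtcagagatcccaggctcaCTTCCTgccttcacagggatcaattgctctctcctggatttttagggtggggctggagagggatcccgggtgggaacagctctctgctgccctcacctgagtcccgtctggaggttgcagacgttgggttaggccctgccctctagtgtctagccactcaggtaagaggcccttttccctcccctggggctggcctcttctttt
Krt18: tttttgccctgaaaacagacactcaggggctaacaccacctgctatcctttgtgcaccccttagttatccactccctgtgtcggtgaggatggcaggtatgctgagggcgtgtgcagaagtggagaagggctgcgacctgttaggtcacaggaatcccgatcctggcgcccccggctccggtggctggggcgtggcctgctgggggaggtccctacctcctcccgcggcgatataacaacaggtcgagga

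In all, 5 motifs were searched on both strands of the 300 bases from 250 before to 50 after the start. AGGAAG began 98 bases before the start of Krt7, 91 and 240 bases before that of Krt20 and 204 bases before that of Krt8, and it had no match at Krt18. Of 32851 promoters of the same length, 35.4% hold it. TATAAA began 29 bases before the start of Krt20 and overlapped the annotated start of Krt8, against a share of 13.6% of promoters. A GATA site, AGATAA, was found once at Krt8 and once at Krt20 (11.2% of promoters). TGACTCA, an AP-1 site, and TTGCNNAA, a C/EBP-like site, matched none of the 4 windows (5.2% and 10.8% of promoters). The longest run of bases shared by Krt7 and Krt20 was GACAGGAAGG in the same orientation, 10 bases that include the AGGAAG match and begin 101 and 94 bases before the respective starts. It occurred, on either strand, in 77 promoters (0.234% of the same 250-base windows). It was the longest among the 6 pairs of the 4 genes and was picked out after the sequences were seen, and such matches describe letters, not binding.

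Values are intensities on a linear scale. A detection floor of 23.3 was set from 80 probe sets for olfactory and vomeronasal receptors, as the highest over the arrays of their 95th percentile, and values below it were raised to it before ratios were taken. A ratio against a value at the floor is given as "at least". The arrays had medians of 4.50 to 4.81 and between 2285 and 2809 genes above the floor. Of the keratins, 4 exceeded the floor on the parietal array (Krt8, Krt18, Krt19 and Krt20), 3 on the zymogenic array (Krt4, Krt8 and Krt18) and 5 on the pit array (all but Krt4), where 12.6% to 15.4% of all genes did.

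**Figure D1:**
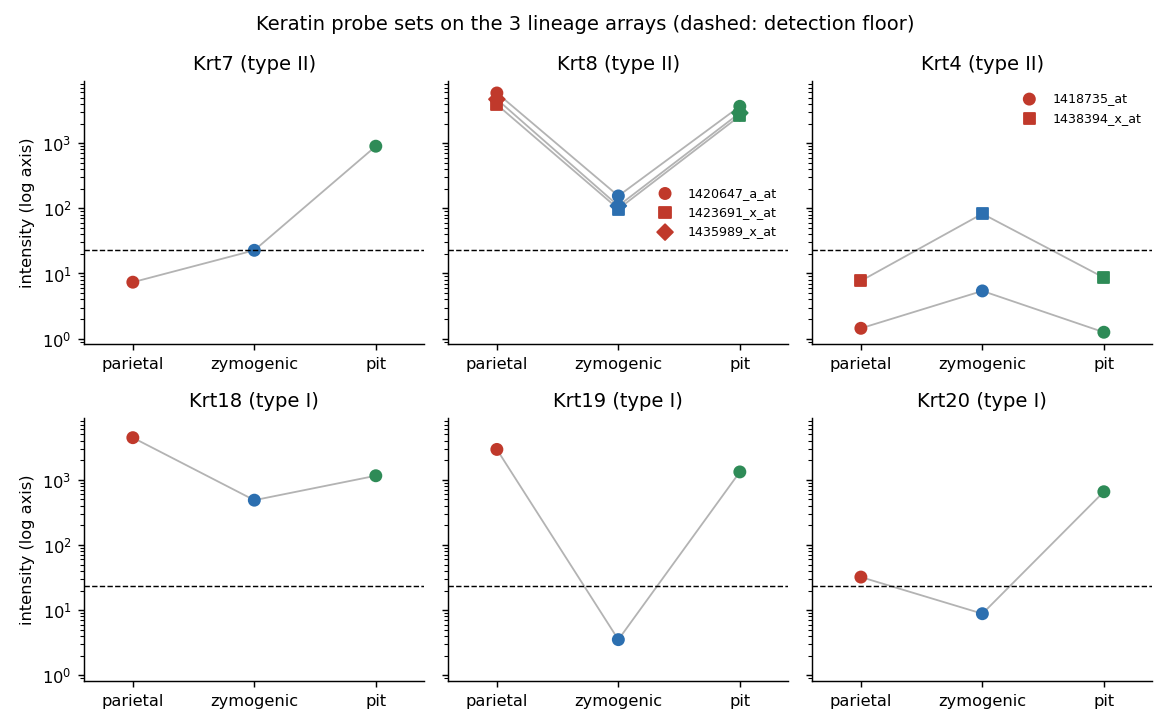
Intensity (log axis) of each of the 9 probe sets of the 6 keratin genes on the parietal, zymogenic and pit arrays, 1 panel per gene, with the detection floor of 23.3 as a dashed line and 1 point per array. Krt8, Krt18 and Krt19 are high on the parietal and pit arrays, Krt7 and Krt20 on the pit array, and 1 probe set of Krt4 passes the floor, on the zymogenic array.

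Krt8 was high in parietal and pit cells, with the parietal array highest as deposited, and far lower in zymogenic cells. The probe set that represents it, the brightest, read 5879 (parietal), 155 (zymogenic) and 3672 (pit). The other two probe sets stood at 3904, 97.6 and 2622, and at 4716, 109 and 2908, in the same order of arrays. All 3 probe sets therefore kept Krt8 above the floor in every lineage. Parietal over zymogenic, the fold ranged from 37.97 to 43.3 over the probe sets, and pit over zymogenic from 23.7 to 26.9, while parietal over pit it ranged from 1.49 to 1.62. The SD of these log2 ratios over the 3 probe sets was between 0.067 and 0.101. For comparison, over all genes with several probe sets the SD of such log2 ratios within a gene was 0.479 (785 combinations of gene and array pair), a measure of probe scatter that holds no spread between animals. The names of the Krt8 probe sets mark them as shared between transcripts or open to cross-hybridisation, so that signal from near-identical copies of the gene cannot be told apart from its own.

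Krt18, the type I partner of Krt8, had the same order of arrays but a much smaller gap. It read 4436 (parietal), 487 (zymogenic) and 1155 (pit). Relative to zymogenic cells it was thus 9.10-fold higher in parietal and 2.37-fold higher in pit cells as deposited. The former, 3.19 as a log2 ratio, became 1.99, just under 4-fold, after quantile normalization and 4.41 when the arrays were scaled to BioB and BioC, spiked controls of the hybridisation. Both partners were present above the floor in all 3 lineages, but their ratios between arrays were not alike. The log2 ratio of pit to zymogenic was 4.57 for Krt8 and 1.25 for Krt18, a difference of 3.32, or 6.94 times the probe scatter. Parietal minus zymogenic, the log2 ratios were 5.25 and 3.19 (a difference of 2.06, 4.31 times the scatter), and pit minus parietal they were -0.68 and -1.94 (1.26, 2.64 times). That scatter is of single ratios, whereas a difference between 2 genes holds the scatter of both. The multiples therefore overstate how far such differences exceed probe scatter. The differences between Krt8 and Krt18 do not depend on how the arrays are scaled to each other by a constant, since any such factor acts on both genes. Quantile normalization is no such constant and changed them. The log2 ratios of Krt8 and Krt18 were then 4.43 and 1.02 for pit minus zymogenic, 4.56 and 1.99 for parietal minus zymogenic, and -0.13 and -0.97 for pit minus parietal.

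Probe sets for common housekeeping genes were also lowest in zymogenic cells. That at the 3′ end of Actb, actin of the cytoskeleton, read 619 (parietal), 76.96 (zymogenic) and 332 (pit), and that of Gapdh, an enzyme of glycolysis, 198, 47.8 and 92.9. The ratio of 3′ to 5′ signal, which rises as RNA is shortened, was 26.1, 14.7 and 9.04 for Actb and 8.84, 3.88 and 6.66 for Gapdh, taken without the floor. The 5′ values were 23.7, 5.23 and 36.8 for Actb and 22.4, 12.3 and 14.0 for Gapdh. Most of these were under the floor, so no order of the arrays is read from the ratios. The part of RNA quality or amount in the low zymogenic values of the keratins was not tested.

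Krt8 and Krt18 are neighbours on chromosome 15. No other protein-coding gene lies between them in the RefSeq table, and their annotated starts are 23874 bases apart and read away from each other. The other adjacent gene of Krt8 is the keratin Krt78, which had another pattern, reading 41.1 (parietal), 111 (zymogenic) and 90.7 (pit).

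Krt19 showed the widest gap of the 6 genes. It read 2928 (parietal) and 1322 (pit) but 3.53, under the floor, in zymogenic cells. Against these its level was at least 126-fold higher in parietal and at least 56.9-fold higher in pit cells. Only 9 of 3597 genes (0.25%) had a parietal over zymogenic fold as large, and 9 of 3624 (0.248%) a pit over zymogenic fold as large, with folds against the floor counted at their bound. Krt19 thus differed from Krt18, a keratin of the same type, which was well above the floor in zymogenic cells. The log2 ratio of pit to zymogenic differed between them by 4.58, which is 9.58 times the probe scatter, with the value of Krt19 a lower bound.

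Krt20 and Krt7 were high on the pit array alone. Krt20 read 657 in pit, 32.2 in parietal and 8.83 in zymogenic cells. Pit cells were 20.4-fold above parietal and at least 28.2-fold above zymogenic cells. Krt7 read 897 in pit cells and was under the floor on the other two, at 7.35 and 22.7, so that its pit level was at least 38.6-fold higher than each. Of the 3441 genes above the floor on the parietal or pit array, Krt7 had the largest pit over parietal fold and Krt20 the third largest, counting folds against the floor at their bound. Krt7 is type II and Krt20 type I, so the pit array held 1 keratin of either type that the other arrays had at or near the floor. The zymogenic value of Krt7 lay just below the floor, and no order is read from it.

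Pit markers did not separate those 2 arrays in the same way. All 8 markers of pit cells (Muc5ac, Gkn1, Gkn2, Tff1, Psca, Ctse, Capn8 and Capn9) were above the floor on both, with summed intensities of 22111 (parietal), 182 (zymogenic) and 15581 (pit). Pit over parietal, the markers ranged from 0.341-fold for Gkn2, a secreted gastrokine, to 2.92-fold for Capn8, a calpain of gastric mucous cells. None was 4-fold higher, but only 1.16% of 3441 genes were, so that count does not set the markers apart from other genes. Capn8 and Capn9 stood at 23.9 and 26.5 on the parietal array, close to the floor. Like the summed markers, Krt8 and Krt19 were high on the parietal and pit arrays. Both were far lower on the zymogenic array, where 2 of the 8 markers passed the floor (12.6% of all genes). Pit minus parietal, the median log2 ratio of the markers was 0.24 as deposited, against -0.085 for all genes. The same ratio was -0.68 for Krt8, -1.94 for Krt18 and -1.15 for Krt19. The part of pit cells in the parietal values of the keratins was not tested. Of the 2 keratins that were high on the pit array alone, Krt20 passed the floor in parietal cells, at 32.2, and Krt7 did not.

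Krt4 was close to background. Its first probe set stood at 1.44, 5.40 and 1.25 on the parietal, zymogenic and pit arrays and its second at 7.69, 82.5 and 8.63. The second alone exceeded the floor, on the zymogenic array, where it was at least 3.55-fold higher than on either other array. The 2 probe sets disagree on whether Krt4 was detected, and the name of the second marks it as open to cross-hybridisation. Of 9 measured markers of squamous forestomach, an epithelium that carries Krt4, 0 exceeded the floor on any array, Krt5, Krt13, Krt14 and Krt15 included, against 22.7% of all genes. Their summed intensities were 46.2, 36.7 and 63.3. Krt13, the usual type I partner of Krt4, was listed at 12.8, 0 and 11.1.

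Counted over the 6 genes, 4 were at least 4-fold higher in pit than in zymogenic cells (Krt7, Krt8, Krt19 and Krt20), against 8.03% of the 3624 genes above the floor on either. On the parietal against the zymogenic array 3 of the 5 above the floor were (Krt8, Krt18 and Krt19), against 7.28% of 3597 genes, and 2 without Krt18 after quantile normalization. No keratin was 4-fold higher in zymogenic than in parietal cells (3.25% of genes) or pit cells (3.84%). Between pit and parietal arrays, 2 of 5 were at least 4-fold higher in pit cells (Krt7 and Krt20, against 1.16% of 3441 genes) and 0 on the parietal array (2.94%), where Krt18 came closest at 3.84-fold. Krt8 and Krt19 were at least 4-fold below both other arrays on the zymogenic array, as were 3.94% of 4138 genes, and Krt7 and Krt20 at least 4-fold above both on the pit array, as were 0.894%. The median log2 ratio of the keratins was 4.69 for pit minus zymogenic (all genes 0.13), 3.19 for parietal minus zymogenic (all genes 0.29) and -0.68 for pit minus parietal (all genes -0.085). The keratins were chosen with earlier results of these arrays known, so these counts and medians describe them and are no evidence of a trend among keratins.

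**Figure D2:**
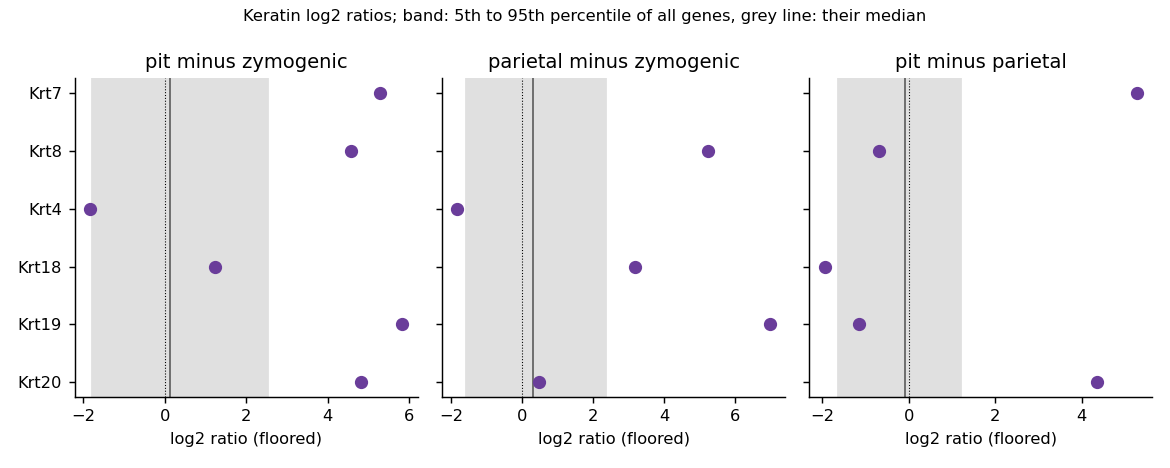
Floored log2 ratios of the keratin genes for the 3 pairs of arrays (points, 1 per gene with a value above the floor on either array), with the 5th to 95th percentile of all genes above the floor on either array as a grey band and their median as a grey line. Krt7, Krt8, Krt19 and Krt20 lie right of the band for pit minus zymogenic, and Krt7 and Krt20 for pit minus parietal. For parietal minus zymogenic, Krt8, Krt18 and Krt19 lie right of it. Krt4 lies left of the band for both ratios against zymogenic cells, and Krt18 for pit minus parietal.

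By how much the shared keratins were higher in parietal than in pit cells depends on the scaling. As deposited, the pit minus parietal log2 ratio was -0.68 for Krt8, -1.94 for Krt18 and -1.15 for Krt19. After quantile normalization it was -0.13, -0.97 and 0, and with BioB and BioC it was -1.90, -3.17 and -2.37. The median of all genes itself was -0.085 as deposited, 0.058 after quantile normalization and -0.74 with those controls, whose geometric mean was 299.8 (parietal), 700.3 (zymogenic) and 700.6 (pit). Pit cells exceeded parietal cells for none of these 3 genes under the scalings tried, but after quantile normalization Krt19 was equal on the 2 arrays and Krt8 differed by less than the probe scatter. Parietal minus zymogenic, the log2 ratio of Krt8 was 4.56 after quantile normalization and 6.47 with the controls, and that of Krt19 at least 6.07 and 8.03, against 5.25 and at least 6.98 as deposited. The pit excess of Krt7 and Krt20 kept its direction under each of these scalings, at 4.35 as deposited and 3.13 with the controls for Krt20, and at least 5.27 and 5.10 for Krt7.

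**Figure D3:**
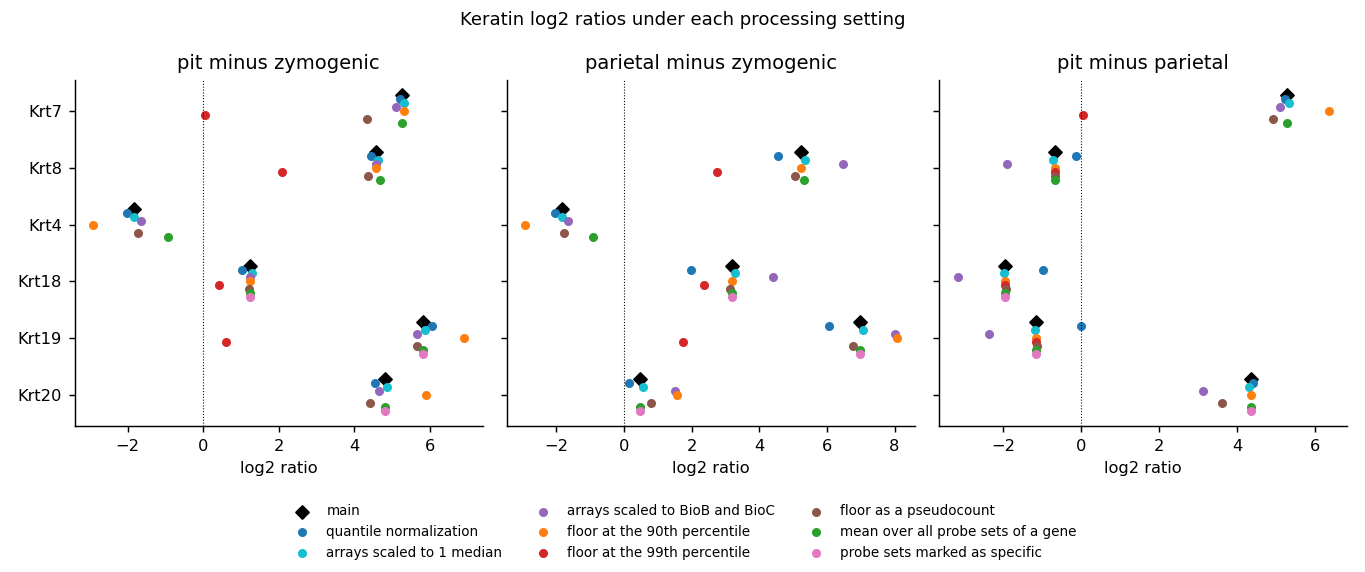
Log2 ratios of each keratin gene for the 3 pairs of arrays under the main setting (black diamonds) and each of 8 other settings of scaling, floor or probe set choice (coloured points, defined in the legend). For pit minus parietal no point of Krt8, Krt18 or Krt19 lies above 0 and none of Krt7 or Krt20 below it, and the floor at the 99th percentile (868) pulls most ratios toward 0.

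The rest of the keratin family was mostly under the floor, as were most genes, of which 22.7% exceeded it on at least 1 array. Of 42 other keratins measured, 6 exceeded the floor on at least 1 array: Krt23, Krt42, Krt73, Krt78, Krt79 and Krt81. Most keratins of skin, hair and stratified epithelia, such as Krt1, Krt5, Krt10 and Krt14, stood below it on all 3. Krt42, at the end of the type I cluster, read 242 (parietal), 15.1 (zymogenic) and 359 (pit), low in zymogenic cells like Krt19 (pit minus parietal log2 ratio 0.57, and -0.66 with the BioB and BioC scaling). The name of this probe set marks it as open to cross-hybridisation, and the second probe set of Krt42 was below the floor throughout. Krt23, the neighbour of Krt20 and a type I keratin of simple epithelia, read 97.4, 19.8 and 34.2, and so was 2.85-fold higher in parietal than in pit cells, the reverse of Krt20. Krt79 stood at 15.3, 4.16 and 48.3 and passed the floor as deposited on the pit array alone. Krt73 (10.4, 36.4 and 14.0) and Krt81 (17.01, 27.1 and 18.5) passed it as deposited on the zymogenic array alone and less than 2-fold. For Krt81 the parietal minus zymogenic log2 ratio, -0.22, became 0.55 with the BioB and BioC scaling. Pit against zymogenic, 2 of the 6 were at least 2-fold higher and 0 lower, against 21.3% and 11.8% of all genes, with a median log2 ratio of 0.17 (all genes 0.13). On the parietal against the zymogenic array, 2 of the 5 above the floor were at least 2-fold higher and 1, Krt78, lower (24% and 8.79% of genes). With the BioB and BioC scaling 13 were above the floor, 2 of them higher and 0 lower, and the log2 ratio of Krt78 was -0.21, against -1.44 as deposited. The median of all genes for this pair was 0.79 under that scaling and 0.29 as deposited.

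Along chromosome 11, which carries the type I genes, 4 of 24 measured keratins exceeded the floor on any array, and along chromosome 15, which carries the type II genes and Krt18, 8 of 24 did. Of all genes, 22.7% did. Of the measured keratins next to Krt7, Krt8, Krt18, Krt19 and Krt20, some were under the floor on all arrays and others were not. Krt15, beside Krt19, stood at 4.36, 0.665 and 5.65, and Krt12, beside Krt20, at 13.3, 10.4 and 20.5, on the parietal, zymogenic and pit arrays. Krt80, beside Krt7, stood at 5.31, 6.52 and 20.1. Krt23, on the other side of Krt20, and Krt78, beside Krt8, exceeded the floor, as given above. Krt4, Krt79, Krt78, Krt8 and Krt18 follow each other at the end of the type II cluster and each passed the floor on at least 1 array, but in differing orders of arrays.

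**Figure D4:**
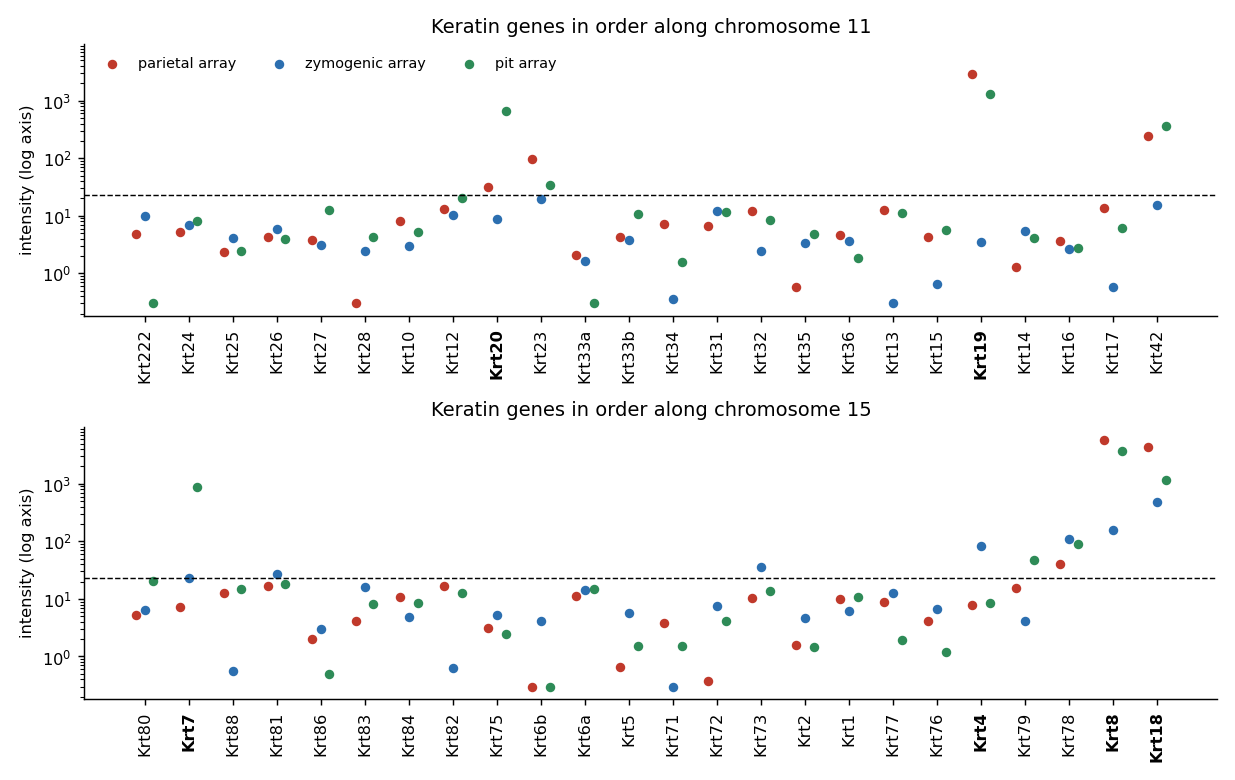
Intensity (log axis, values under 0.3 drawn at 0.3) of every measured keratin gene on the 3 arrays, in gene order along chromosomes 11 and 15, with the floor of 23.3 dashed and the 6 described genes in bold. Most genes lie under the floor on all arrays, and Krt8, Krt18 and Krt19 are at 1155 or more on the parietal and pit arrays.

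Genes that tie keratin filaments to cell junctions were then examined. Of 18 genes for plakins, desmosomes and keratin-binding proteins, 11 exceeded the floor on at least 1 array, against 22.7% of all genes. Of these 11, 8 did so in parietal, 3 in zymogenic and 9 in pit cells. Pit against zymogenic, 8 of the 9 above the floor were at least 2-fold higher and 0 lower (21.3% and 11.8% of all genes), with a median log2 ratio of 2.75. Parietal against zymogenic, 6 of 8 were at least 2-fold higher and 0 lower (24% and 8.79%), with a median of 1.86. Pit against parietal, 6 of 11 were at least 2-fold higher and 1, Pnn, lower (7.7% and 14.4%), with a median of 1.03. The sign of that last median turned with the BioB and BioC scaling, where 1 of 15 was at least 2-fold higher in pit cells and 2 were lower. Shares of all genes 2-fold apart were not counted under that scaling. The median was then -0.39, against -0.74 for all genes. Against zymogenic cells the medians were then 2.70 for pit (all genes 0.14) and 1.08 for parietal cells (all genes 0.79).

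Dsp, the desmoplakin that links keratins to the desmosome, read 169 (parietal), 33.7 (zymogenic) and 286 (pit). Plec, plectin, which crosslinks intermediate filaments, stood at 139, 45.5 and 439.7. The desmosomal cadherin Dsg2 stood at 123, 22.2 and 297, and Dsc2, the other cadherin of simple epithelia, at 23.7, 1.08 and 55.7. Dsp, Plec and Dsg2 had the order pit, parietal, zymogenic as deposited, where Krt8, Krt18 and Krt19 were highest in parietal cells. Dsc2 too was highest in pit cells, but its parietal value was close to the floor (1.02-fold over zymogenic), so the other 2 arrays are not ordered. Of the 4 genes only Dsp was higher in parietal than in pit cells with the BioB and BioC scaling. Dsg2 and Dsc2 were then near equal on both (pit minus parietal log2 ratios 0.043 and 0.0055). The plakophilin Pkp3 (59.0, 11.05 and 171) and Ywhaz, a 14-3-3 protein (122, 28.3 and 190), had the order of Dsp as deposited. Ywhaz too was higher in parietal cells with the BioB and BioC scaling. Sfn, a 14-3-3 protein of epithelia that binds keratins, passed the floor as deposited on the pit array alone, at 83.8 against 12.3 and 6.73, as did Eppk1, epiplakin (47.6 against 18.2 and 3.01), and the co-chaperone Dnajb6 (28.6 against 21.8 and 6.78). With the BioB and BioC scaling all 3 passed it in parietal cells too, and Dnajb6 was then higher there (pit minus parietal log2 ratio -0.83, against 0.30 as deposited). Pkp2, at 41.4, 12.4 and 18.7, passed it on the parietal array alone. Pnn, which binds keratins, read 9778 in parietal cells against 2.36 and 5.30, and neither of its other probe sets passed the floor. Of the further probe sets above the floor, 1 of Dsp, 1 of Dsg2 and 1 of 2 of Ywhaz also were at least 2-fold higher in pit than in zymogenic cells, while the other of Ywhaz and the 1 of Plec were not.

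**Figure D5:**
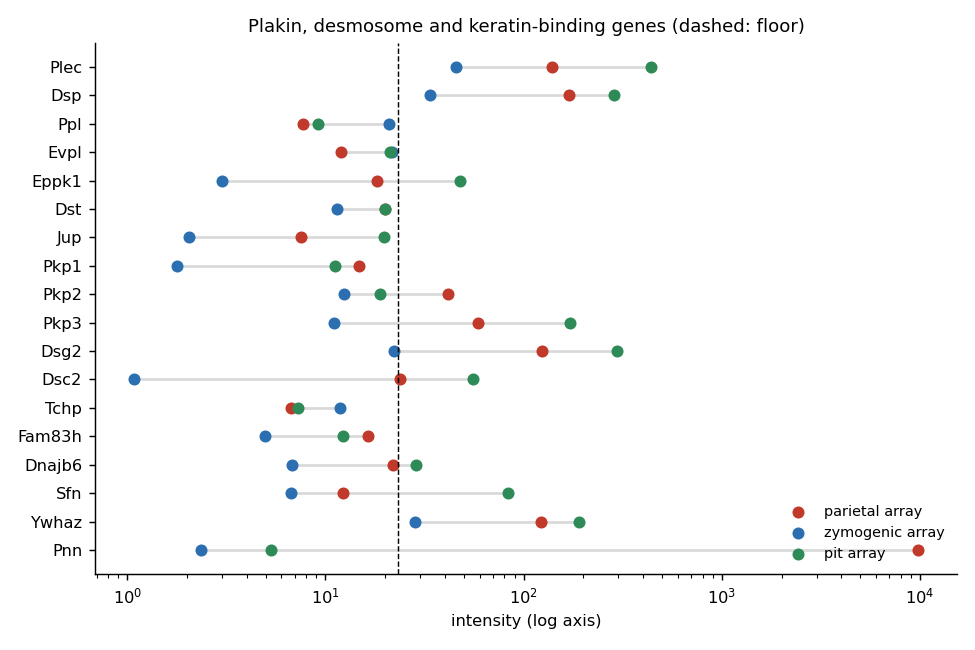
Intensity (log axis) of the 18 genes for plakins, desmosomes and keratin-binding proteins on the parietal, zymogenic and pit arrays (points joined by a line from the lowest to the highest), with the floor of 23.3 dashed. For Plec, Dsp, Pkp3, Dsg2, Dsc2 and Ywhaz the pit array is highest and the zymogenic array lowest in these deposited values, with the parietal value of Dsc2 close to the floor. Parietal exceeds pit for Dsp and Ywhaz with the BioB and BioC scaling.

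Intermediate filament genes outside the keratins, nuclear lamins included, were looked at next. Of 14 genes, 4 exceeded the floor on at least 1 array, against 22.7% of all genes. Vim, the vimentin of mesenchymal cells, stood at 30.2, 22.6 and 12.0 on the parietal, zymogenic and pit arrays, and Des, the desmin of muscle, at 18.8, 31.8 and 15.5. The nuclear lamins Lmna (83.7, 22.5 and 417) and Lmnb1 (34.7, 12.9 and 80.2) had the same order as Dsp and Dsg2. As deposited they were 4.98-fold and 2.31-fold higher in pit than in parietal cells. With the BioB and BioC scaling the pit minus parietal log2 ratio was 1.09 for Lmna and -0.016 for Lmnb1. Lmna has 5 probe sets, and the 1 further probe set above the floor was not 2-fold apart between any arrays. The median log2 ratio of the list was 1.79 for pit minus zymogenic over 3 genes (all genes 0.13). It was 0.48 for parietal minus zymogenic over 4 genes (all genes 0.29). Pit minus parietal, it was 1.21 as deposited over 3 genes (all genes -0.085). With the BioB and BioC scaling that last median was -0.38 over 6 genes (all genes -0.74).

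Epithelial genes outside the keratins were lower on the zymogenic array in part. Cdh1, the E-cadherin whose protein was stained to choose pit and zymogenic cells, stood at 211, 21.5 and 298 on the parietal, zymogenic and pit arrays. It was thus under the floor in zymogenic cells and highest, as deposited, in pit cells. Epcam, an adhesion protein of epithelia, differed little (42.4, 30.6 and 36.7), and Cldn3, a tight junction protein, was above the floor as deposited on the zymogenic array alone (66.1 against 11.6 and 8.59). Of 8 such genes measured, 5 (parietal), 3 (zymogenic) and 4 (pit) exceeded the floor, where 15.4%, 12.6% and 14.4% of all genes did. Their summed intensities were 710, 390 and 1195. Pit minus zymogenic, their median log2 ratio was 1.60, against 0.13 for all genes. Markers of zymogenic cells exceeded the floor on their own array in 9 of 9 cases (12.6% of all genes), with a summed intensity of 26509 against 3718 (parietal) and 431 (pit). Those of parietal cells had summed intensities of 5738, 1329 and 380. Of 12 measured, 6 (parietal), 5 (zymogenic) and 2 (pit) exceeded the floor, against the shares of all genes given above. On the parietal array most of the sum came from Atp4b, at 4402, 793 and 102, while Atp4a stood at 214, 261 and 12.5. Parietal minus zymogenic, the median log2 ratio of these markers was 0.47 (all genes 0.29). Of these, 3 of 6 were at least 2-fold higher and 1 lower, against 24% and 8.79% of all genes. On the zymogenic array, where 12.6% of all genes exceeded the floor, 5 of 6 endocrine markers also did, among them Chga at 453. Mesothelium, which shares Krt7, Krt8, Krt18 and Krt19, had 0 of 5 markers above the floor on any array, against 22.7% of all genes.

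Genes with the pattern most like each keratin were found by the distance between centred log2 values over the 3 arrays, among 1007 genes at least 4-fold above the floor on 1 array. Krt7 and Krt20 were each other's nearest genes, at 0.65, and both were followed by Cybrd1, an iron reductase, and Gng4, a G protein subunit. Cybrd1 stood at 4.64, 1.95 and 335 on the parietal, zymogenic and pit arrays, and Gng4 at 28.5, 28.8 and 348. Nearest to Krt8 were the gasdermin Gsdma2 (0.21), the paraoxonase Pon2 (0.26) and the protease Ctse (0.39). Gsdma2 stood at 736, 6.55 and 465, so its distance rests on a zymogenic value raised to the floor. Pon2 stood at 3802, 79.8 and 2357, and Ctse at 2391, 64.8 and 2105. Nearest to Krt18 were Pttg1ip (0.087), the glutathione transferase Gstp1 (0.14) and Samhd1 (0.16), with Gstp1 at 1976, 215 and 455.5. Nearest to Krt19 were Tmc8 (0.26), Slc5a4b (0.30) and the glutathione transferase Gsta4 (0.49), all under the floor on the zymogenic array. Those nearest to Krt4 were Igf1r (0.13), Tmed3 (0.14) and the chaperone Hyou1 (0.15), each highest on the zymogenic array. Apart from Cybrd1 and Gng4, no gene was among the nearest 3 of more than 1 keratin. The measure rests on 3 values per gene.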

How the data were processed

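RNA of 3 microdissected lineages was measured on 1 array each. Per the labels' protocols RNA was amplified and labelled with biotin. The labels name the molecule nuclear RNA, the design text total RNA. The deposited values are linear intensities of probe sets. How the authors summarised, corrected and scaled them is not given in the sources used here. Amplification can shorten transcripts at the 5′ side, which lowers probe sets placed there. Precision is limited by the number of arrays.

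Of 45101 probe sets, the 34958 that name 1 gene in the platform's table were used. Left out were 932 that name several genes or none, 9160 that the table does not list, and array controls not listed there. RefSeq names (GRCm38.p6) matched 34754. A gene was represented by its brightest probe set, and 4-fold was the main threshold. Named were all keratin probe sets, list members above the floor and the 3 nearest genes per keratin. The members and lists were chosen with earlier results of these data known. Python 3.11.15, numpy 2.4.6, pandas 2.3.3 and matplotlib 3.10.9 were used, and the counting was tested on simulated data. Alternatives were other scalings, the 90th or 99th percentile as floor, a pseudocount, other probe set choices, and thresholds of 2-fold and 8-fold.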

Additional observations from a re-analysis of the deposited data

How the results depend on the processing

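No paired analysis was possible because each lineage has 1 array, and no array could be left out of a pair. Of 60 counts of keratins 4-fold apart under the alternatives, 48 stayed within 1.5 times the main count. The count for zymogenic over parietal and that for zymogenic over pit, 0, became 1 (Krt4) after quantile normalization, with a 90th percentile floor and at 2-fold. That for parietal over pit, 0, became 2 at 2-fold and 2 with the BioB and BioC controls. For pit over zymogenic, 4 became 1 with a 99th percentile floor and 2 with probe sets marked as specific, which leave out Krt7 and Krt8; for pit over parietal, 2 became 0 and 1. At that floor, 868, only 62 to 70 genes were left in a pair. The median log2 ratio for parietal minus zymogenic, 3.19, was 1.99 after quantile normalization, 4.41 with the controls, and 2.37 and 2.35 with the floors at the 90th and 99th percentile. For pit minus zymogenic, 4.69 became 0.51 with the latter. For pit minus parietal, -0.68 became 0 after quantile normalization and -1.90 with the controls. The causes of these changes were not tested, beyond the genes that a floor or probe set choice removes. The medians' alternatives were chosen after seeing the data. Of 116 single log2 ratios, 83 moved by less than the probe scatter and none of those at least 4-fold apart changed sign.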

Other observations

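Markers of further cell types were measured as well, where 22.7% of all genes exceeded the floor on at least 1 array. Of stroma and muscle markers, 6 of 8 exceeded the floor on at least 1 array, with summed intensities of 410 (parietal), 328 (zymogenic) and 186 (pit), and Col1a2, a collagen, stood at 125, 61.7 and 25.6. Of leukocyte markers 4 of 6 did, with Cd74, the invariant chain, at 166, 119 and 63.1. Mucous neck cell markers were led by the trefoil factor Tff2, at 402, 21.9 and 110, with 2 of 3 above the floor. Of proliferation markers 2 of 5 were, with Stmn1 at 119, 18.3 and 26.3. Tuft cell markers had 1 of 4 above the floor, Dclk1, at 87.3 on the zymogenic array, pancreatic acinar markers 1 of 4, Prss2, at 104, 94.2 and 184, and red blood cell markers 0 of 2.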
